A study of Homo sapiens with 12 samples.

Results

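Molecular chaperones of the cytosol and mitochondria, with their co-chaperones and the heat shock factors, were described in HEK293T, an established human line of embryonic kidney origin in which the SV40 large T antigen is expressed. The genes were taken by name from both deposited tables: the HSP70 (HSPA), small heat shock protein (HSPB), HSP60 (HSPD), HSP10 (HSPE), HSP110 (HSPH) and cytosolic HSP90 (HSP90A) families, J-domain proteins named DNAJA, DNAJB or DNAJC, BAG1 to BAG5, HSF1 and HSF2. HSPA5, DNAJB9, DNAJB11 and DNAJC3, which act in the endoplasmic reticulum, were left out, as were readthrough names and most pseudogenes (HSP90AB4P, a pseudogene by name, met the rule). The rule uses names alone and gave 78 of the 26485 genes listed. It keeps some other proteins of the endoplasmic reticulum, such as DNAJC1, DNAJC10 and HSPA13.

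All cells were HEK293T, and PX330-GFP plasmids were brought in with polyethylenimine. The 12 libraries of polyA RNA formed 4 groups of 3, namely 6T sgRNA with Cas9, 6T sgRNA without Cas9, Luciferase sgRNA with Cas9 and Luciferase sgRNA without Cas9. An sgRNA guides the Cas9 nuclease to a DNA site, and luciferase is a gene that human cells lack. Each sgRNA has 1 deposited table with a mean for a condition A and a condition B. Which letter stands for the libraries with Cas9 is stated neither in the headers nor in the labels, nor is it stated that a letter has 1 meaning across the tables, so each difference is given by letter. The labels do not say whether the replicates were separate cultures, so p-values measure the spread between these libraries, which may be technical.

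Reads per library were worked out from the deposited means, as the processing account describes. They are named 1 to 3 within a condition in order of size factor, which is no replicate number of the labels. Reads in genes ranged from 6659816 to 8293211 per library in 6T condition B, from 6348149 to 8271003 in 6T condition A, from 19433584 to 37930354 in Luciferase condition B and from 5884892 to 8242529 in Luciferase condition A. In the Luciferase table depth and condition therefore cannot be told apart. Levels are normalized reads, that is reads divided by the authors' size factor of the library. Genes of the line itself were present, with PAX2 at deposited means of 120 to 147 and NEFM at 3063.7 to 4135 in the authors' deposited tables, and the blood genes CD3E and HBB were listed at 0 in both. Of the markers of liver, fibroblasts and muscle, COL1A1 at 497 to 534 and COL3A1 at 83.4 to 95.1 were above a mean of 10 in the authors' deposited tables, and ALB, APOA1 and MYH7 were not. The libraries are of bulk RNA, in which a change in the share of cells that use a gene and a change in its RNA per cell cannot be told apart.

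HSP70 proteins bind stretches of unfolded protein and release them in a cycle driven by ATP. J-domain proteins bring clients to HSP70 and speed up ATP hydrolysis, while BAG proteins, HSP110 and HSPBP1 make HSP70 release its nucleotide. HSP90 acts later, on kinases and steroid receptors near their final fold, and HSP60 with its lid HSP10 folds proteins inside the mitochondrial matrix. The trimeric factor HSF1 raises a subset of these genes, the inducible core, by binding heat shock elements, which are inverted repeats of the unit GAA. The large T antigen of this line itself starts with a J domain.

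Matches to the heat shock element in the promoters are shown first, for 10 genes on which the results turn. RefSeq entries (GRCh38.p14, 250 bases before to 50 after each gene start) existed for 65 of the 78 genes. A motif of 3 units (GAANNTTCNNGAA or TTCNNGAANNTTC, which together cover both strands) was found for 7 of these 65 genes, or 10.8%, against 0.608% of the 27305 genes with an entry. The shorter motif of 2 units (GAANNTTC or TTCNNGAA), which lies within every longer one, was found for 23 of 65, or 35.4%, against 16.2% of all genes with an entry. A match is a run of letters in this window, and binding was not measured. Of the inducible core, HSPH1, HSPE1 and BAG3 had an entry with no match to either motif, and HSPA6, which has a 3-unit match but few reads, is not shown. In the stretches of 30 bases below, each read on the strand of its gene, capitals mark the matches to either motif.
HSPA1B, chr6:31827622-31827651, plus strand: cgaaacccctgGAATATTCccgacctggca
HSPA1A, chr6:31815426-31815455, plus strand: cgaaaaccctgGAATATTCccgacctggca
HSPA8, chr11:123062170-123062199, minus strand: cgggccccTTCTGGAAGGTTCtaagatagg
HSP90AA1, chr14:102087111-102087140, minus strand: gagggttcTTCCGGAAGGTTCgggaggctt
HSP90AB1, chr6:44247823-44247852, plus strand: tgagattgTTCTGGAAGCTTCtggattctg
HSPD1, chr2:197500059-197500088, minus strand: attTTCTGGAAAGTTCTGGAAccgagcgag
DNAJA1, chr9:33025268-33025297, plus strand: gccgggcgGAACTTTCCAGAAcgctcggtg
DNAJB6, chr7:157336865-157336894, plus strand: agagccgaGAACCTTCGCGAAggtggggcg
DNAJB1, chr19:14518426-14518455, minus strand: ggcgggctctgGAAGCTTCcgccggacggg
HSPB1, chr7:76302480-76302509, plus strand: ccttaacgagaGAAGGTTCcagatgagggc

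The match began 105 bases before the annotated start in HSPA1B, 106 in HSPA1A, 55 in HSPA8, 88 in HSP90AA1, 112 in HSP90AB1, 131 in DNAJB6, 47 in DNAJB1 and 182 in HSPB1, and 3 bases after it in DNAJA1. In HSPD1 the capitals, which join overlapping matches, began 245 bases before the more downstream of the 2 starts with an entry. By GENCODE v29 it lies where HSPD1 (chr2:197486581-197516737, minus strand) and HSPE1 (chr2:197499994-197503457, plus strand) overlap, so that the genes of HSP60 and its lid share this stretch. The strand setting of the counting is not given in the sources used here, and reads from their overlap cannot be assigned with certainty. The entries of HSPA1A and HSPA1B were identical at 277 of 299 aligned bases, or 92.6%.

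Of the 78 genes, 61 were detected, meaning a mean of at least 10 normalized reads in both tables, and 2, DNAJB3 and DNAJB8, were listed at 0 in both. The 61 detected genes were 11 of 14 HSPA, 1 of 1 HSPH, 2 of 3 HSP90A, 1 of 1 HSPD, 1 of 1 HSPE, 4 of 9 HSPB, 3 of 4 DNAJA, 7 of 11 DNAJB, 24 of 27 DNAJC, 5 of 5 BAG and 2 of 2 HSF genes. The names starting with HSPB also bring in HSPBP1, an exchange factor of HSP70, and HSPB11, which is known as a part of the intraflagellar transport complex. HSPA6, the HSP70 copy that cells express only under strong stress, stayed near 0, with deposited means of 3.5 and 3.8 in 6T conditions B and A and of 8.2 and 6.8 in Luciferase conditions B and A in the authors' deposited tables.

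Set on a common scale of normalized reads per kilobase of exon, the constitutive HSP90 and HSP70 of the cytosol led. HSP90AB1, the constitutive cytosolic HSP90, had 6649 per kilobase in 6T condition B, 7154 in 6T condition A, 6418 in Luciferase condition B and 5799 in Luciferase condition A. HSPA8, the constitutive HSP70, had 4464, 5118, 6469.6 and 4830.4 in the same groups. Next came the stress-inducible HSP90AA1 with 2256 to 3991, the mitochondrial HSPD1 with 2003 to 3248, and DNAJC8, a J protein linked to splicing, with 1509 to 1700.3. HSPB1, the main small heat shock protein, stood at 1341 to 1605, and HSPA1B, the inducible HSP70, at 675 to 1697, above DNAJC8 and HSPB1 in Luciferase condition B. By contrast, HSPE1, whose protein pairs with HSPD1, reached only 119 to 335. Processed pseudogenes of HSPA8, HSPD1 and HSPE1 are common in the genome, and reads shared with such copies may be lost or moved between genes, so these orders are uncertain.

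Sums over the HSPA, HSPH, HSP90A, HSPD and HSPE families were each lowest in Luciferase condition A. Those over HSPB and HSF were highest there, at 2354 and 1033 per kilobase. DNAJA, DNAJB and BAG had their lowest sums in 6T condition B. For HSPA8, HSPH1, HSP90AA1, HSPD1 and HSPE1 library Luciferase A1 was the lowest of its condition. It had 4340 normalized reads of HSP90AA1, against 12126 and 10789 in Luciferase A2 and A3. HSP90A genes came to 10376 per kilobase in 6T condition B against 11146 in 6T condition A, and to 9991 in Luciferase condition B against 8055 in Luciferase condition A. HSPA genes came to 7622 in 6T condition B against 8151 in 6T condition A, and to 10251 in Luciferase condition B against 7493 in Luciferase condition A. By letter, the order of the conditions was thus opposite under the 2 sgRNAs for both families, though a letter need not mean the same in both. Single libraries of the 6T conditions also differed widely, as given below for HSPA8 and HSP90AA1, and the order of these sums was not tested. The DNAJC genes, the most numerous family, differed less, with 4796 and 5054 in 6T conditions B and A and 4812 and 4689.6 in Luciferase conditions B and A. Of the 61 detected genes 35, or 57.4%, had the lowest of their 4 means in Luciferase condition A, against 37.8% of all 13917 detected genes, and 2, or 3.28%, had it in Luciferase condition B, against 16.6% of all.

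Between conditions under the 6T sgRNA, the DESeq test of the authors' deposited table called no chaperone gene at an adjusted p under 0.05. The count was 0 of 75 genes tested, against 0.0416% of the 19246 genes tested in all, and 0 also passed at an unadjusted p under 0.05, against 0.868% of all. The 12-library limma fit likewise called 0 of 59 (0.0072% of all), with 0 at an unadjusted p under 0.05 against 3.08% of all. Fitted on the 6 libraries of the 6T table alone, limma called 0 of 59, with 1 gene, DNAJC13, at an unadjusted p under 0.05, against 2.35% of all, and with 0 to 3 genes when 1 library was left out. By the authors' deposited table, condition B had the higher mean for 17 and the lower mean for 44 of the 61 detected genes, with a median log2 fold change of −0.08, against −0.03 over all detected genes, 57.9% of which were lower. In limma the median over the 59 genes was −0.059 with all libraries and 0.032 without library 6T A2. The smallest p was that of DNAJC13, a J protein of endosomes, at 0.112 in the authors' deposited table (adjusted p = 1.0). It had 726, 686 and 635 normalized reads in the condition B libraries, against 785, 839.9 and 795 in condition A. The libraries did not overlap for this gene, for DNAJC16, which was lower too, and for HSPB1, which was higher. These 1 higher and 2 lower of 59 chaperone genes compare with 4.2% higher and 3.69% lower among all 13899 genes with recovered reads.

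Under the Luciferase sgRNA the authors' deposited test called no chaperone gene either, 0 of 76 tested, against 0.0% of the 20194 genes tested in all. At an unadjusted p under 0.05 the count was also 0, against 1.22% of all genes. In the 12-library limma fit 0 of 59 were called (0.0% of all), and 10 had an unadjusted p under 0.05, against 10.8% of all. On the 6 Luciferase libraries alone limma called 0 of 62, with 10 at an unadjusted p under 0.05, against 9.57% of all. That count was 0 without Luciferase B2, 1 without Luciferase B3, 16 without Luciferase B1 and 17 without Luciferase A2. By the authors' deposited table, condition B had the higher mean for 42 and the lower mean for 19 of the 61 detected genes, with a median log2 fold change of 0.18, against a median of 0.00 over all detected genes, 49.2% of which were higher. A log2 fold change of 0.5 or more in size was reached by 11 chaperone genes, all higher in condition B in the authors' deposited table, against 7.11% of all detected genes, while under 6T 1 gene, HSPA1L, reached it, against 2.92%. These 11 were HSPE1, HSPA1B, HSPA4L, DNAJB4, HSP90AA1, HSPH1, HSPB11, DNAJC2, DNAJB14, DNAJC10 and DNAJC25, with values from 0.88 down to 0.50. In all 11 of them library Luciferase A1 was the lowest of the 3 libraries of condition A, and the median over the chaperone genes was 0.20 in limma with that library and 0.058 without it.

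**Figure D1:**
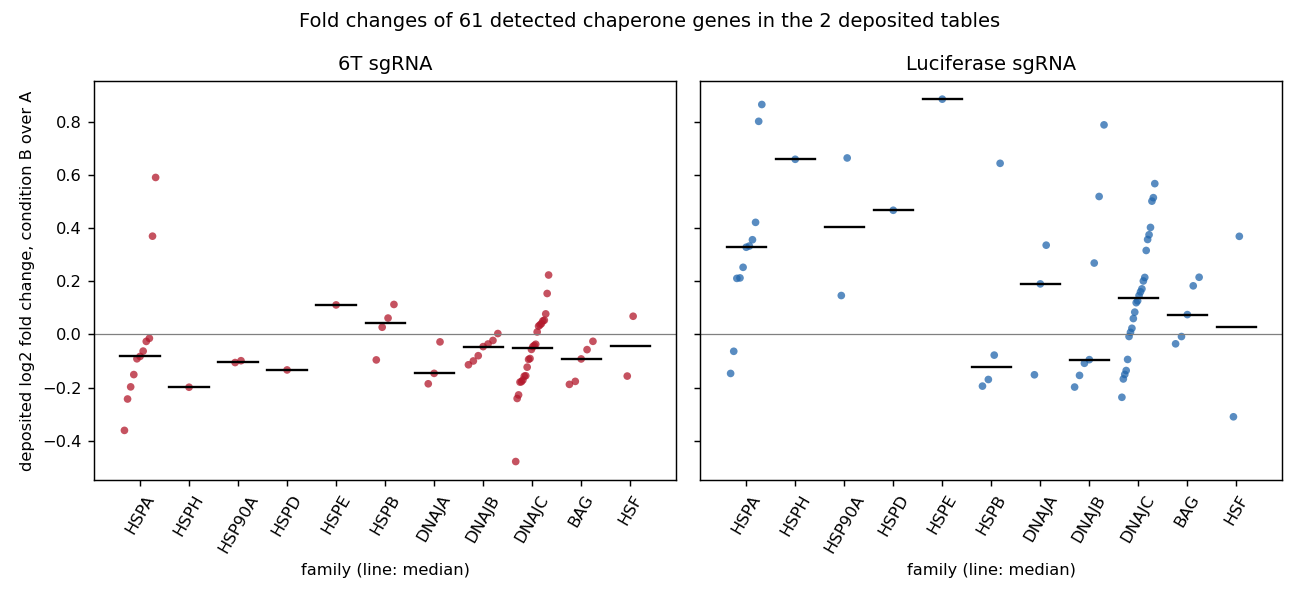
Log2 fold change of condition B over condition A (vertical axis) in the authors' deposited tables for the 61 detected chaperone genes by family, under the 6T sgRNA (left) and the Luciferase sgRNA (right), with 1 point per gene and a line at the family's median. Under 6T 44 of 61 points lie below 0, and under Luciferase 42 of 61 lie above it, and none passed the adjusted threshold.

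The comparison of all 4 groups used limma on the log2 of normalized reads, which needs no knowledge of the letters. It covered 13897 genes and 59 of the 61 detected chaperone genes, because HSPA8 and HSP90AB1 had no single solution for their reads in 6T condition A. No chaperone gene was called by the F test (0 of 59, against 0.0935% of all), and the smallest adjusted p was 0.178 in limma's F test, for HSF1. Of the 59, 14 had an unadjusted p under 0.05, against 17.3% of all genes.

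HSF1, the factor that switches the response on, had the smallest p of these genes in that test. It had 1483, 1486 and 1677 normalized reads in 6T condition B, against 1431, 1515 and 1486 in 6T condition A. In Luciferase condition B it had 1653, 1487 and 1581, against 2227, 1795 and 1829 in Luciferase condition A. Every library of Luciferase condition A lay above every other library. The difference of 6T from Luciferase within condition A was −0.39 ± 0.093 (log2, SE) with an adjusted p of 0.0577 in limma, and within condition B −0.02 ± 0.093 (adjusted p = 0.988 in limma). HSF2, a related factor active in development, had the opposite sign within condition A, at 0.59 ± 0.181 (adjusted p = 0.074 in limma). With values corrected for GC content these differences within condition A were −0.15 ± 0.063 for HSF1 and 0.25 ± 0.098 for HSF2, with adjusted p of 0.253 and 0.237 in limma. The uncorrected mean of HSF2 was 641 ± 129 in 6T condition A and 431 ± 111 in Luciferase condition A (SD, n = 3 each).

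Within condition A the contrast of 6T with Luciferase called no chaperone gene (0 of 59, against 0.0648% of all). Without library Luciferase A2 it called 7 of them and 1056 genes in all, and without any other single library it called none of them. The 7 were HSPD1, HSF2, DNAJC13, HSPA9 and DNAJC16, higher in 6T, and DNAJB2 and HSF1, lower in 6T. With that library left out, Luciferase condition A rests on 2 libraries. With all 12 libraries an unadjusted p under 0.05 was found for 27 of 59, against 31.6% of all. It was found for 14 of 59 after correction for GC content (16.7% of all), for 15 without Luciferase A1 and for 17 without 6T A2, and the smallest adjusted p after the correction was 0.174 in limma. Libraries did not overlap for 14 genes higher and 9 lower in 6T condition A, against 16.1% and 17.0% of all genes. Within condition B the contrast called no chaperone gene and 0.0% of all genes. An unadjusted p under 0.05 was found for 7 of 59, against 5.24% of all. These 7 were BAG3, DNAJC18, DNAJB2, DNAJC11, DNAJB1, HSPA2 and HSPA1B. The count was 0 without Luciferase B1, 1 without 6T B2, 3 without 6T B3, 4 without Luciferase B2 and 11 without 6T B1, and it was 11 after correction for GC content. Libraries did not overlap for 2 genes higher in 6T condition B (DNAJC18 and HSPA9) and 6 lower, against 6.11% and 6.61% of all genes. Depth differed between the sgRNAs in condition B, and its part in this contrast was not tested.

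The change from A to B did not pass the threshold for a difference between the sgRNAs in any chaperone gene (0 of 59, against 0.0% of all genes, limma's interaction contrast). The smallest adjusted p was 0.482 in limma, and 3 of 59 genes, DNAJC13, HSF1 and DNAJC16, had an unadjusted p under 0.05, against 9.51% of all genes. The median difference of the changes (6T minus Luciferase) over the 59 genes was −0.28, against −0.04 over all genes. After correction for GC content the median over the chaperone genes was −0.10, and 1 gene had an unadjusted p under 0.05. Without single libraries that count ranged from 2 to 11, the highest being 11 without 6T B1, 9 without Luciferase A2 and 8 without 6T A3.

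Several inducible genes differed widely between libraries of the same group. HSPA1B, the gene of the main stress-inducible HSP70 (chr6:31827735-31830255, plus strand, GENCODE v29), had 5314, 587 and 691 normalized reads in 6T condition B, against 659.9, 3106 and 1336 in 6T condition A. In Luciferase condition B it had 4592, 4808 and 3437, against 737, 2793 and 3519.5 in Luciferase condition A. Library 6T B1 was the highest and 6T B2 the lowest of all 12, and the conditions overlapped under both sgRNAs. Within 6T condition B the highest library had 9.06 times the reads of the lowest. The standard deviation between libraries of a group was 1.22 on the log2 scale, the fifth widest of 13897 genes. The counts behind these values, from 420 to 13434 reads per library, leave little counting error. HSPA1A, the near-identical copy beside it, had only 24.3, 2.79 and 2.39 normalized reads in 6T condition B, against 4.61, 11.2 and 2.45 in 6T condition A. Reads that fit both copies cannot be assigned with certainty.

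HSPA8 had 22045, 5535 and 8565 normalized reads in 6T condition B. Under Luciferase it had 18369.8, 19062 and 14953 in condition B, against 5554, 16096 and 17462 in condition A. Library 6T B1 was the highest and 6T B2 and Luciferase A1 were the lowest of these 9. In 6T condition A, where the authors' deposited mean was 13813, 2 splits of the reads fit the deposited values, and both span more than a doubling, with libraries from 8689.7 to 19729 in the one and from 8064 to 20424 in the other. HSP90AB1 had 22697, 16880.1 and 19863 in 6T condition B and 2 possible splits in 6T condition A, and it had 19331, 20005 and 18037 in Luciferase condition B against 14747, 18984 and 18108 in Luciferase condition A.

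HSP90AA1, the inducible HSP90, had 20627, 10544 and 13855 normalized reads in 6T condition B, against 14178, 22955 and 11086 in 6T condition A, and 12225, 15403 and 15549 in Luciferase condition B, against 4340.1, 12126 and 10789 in Luciferase condition A. Libraries 6T B1 and 6T A2 were the highest and Luciferase A1 the lowest. The Luciferase conditions did not overlap, by the narrow step between 12225 and 12126. The 7 genes so separated with condition B above condition A (BAG2, DNAJC1, DNAJC16, DNAJC27, HSP90AA1, HSPD1 and HSPH1) compare with 6.52% of the 13903 genes with recovered reads, and the 4 below it (DNAJA3, DNAJC5, HSF1 and HSPBP1) with 9.49%, among 61 chaperone genes. In limma HSP90AA1 differed between the Luciferase conditions by 0.79 ± 0.353 (log2, SE), with an adjusted p of 0.441.

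HSPH1, the HSP110 that acts as an exchange factor, had 1580.4, 697 and 952 normalized reads in 6T condition B, against 1077, 1904 and 724 in 6T condition A. In the Luciferase libraries it had 929.9, 1230.4 and 1407 in condition B, against 487, 875 and 897 in condition A. Its order of libraries within each 6T condition matched that of HSP90AA1. DNAJB1, the main cytosolic J protein of the stress response, had 1458, 725 and 679 in 6T condition B, against 697, 1246 and 1012 in 6T condition A. It had 1553, 1470.2 and 1290.0 in Luciferase condition B, against 838, 1335 and 1409 in Luciferase condition A. The highest of all 12 libraries was here Luciferase B1, and the conditions overlapped under both sgRNAs. DNAJA1, a farnesylated J protein that pairs with HSPA8, had 3088, 1152 and 2021 in 6T condition B, against 1854, 3204 and 2064 in 6T condition A. In Luciferase condition B it had 2540.1, 2724 and 2394, against 1104, 2477 and 2487 in Luciferase condition A. Libraries 6T B1 and 6T A2 were the highest of all and Luciferase A1 the lowest, and the conditions overlapped under both sgRNAs.

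The mitochondrial pair shared the pattern too. HSPE1 had 544, 228 and 263 normalized reads in 6T condition B, against 237, 585 and 136 in 6T condition A, and 131, 260.2 and 288 in Luciferase condition B, against 59.5, 155 and 154 in Luciferase condition A. Its spread within groups, 0.80 on the log2 scale, ranked 39 of 13897. HSPD1 had 9167, 6334 and 7326 in 6T condition B, against 7529.8, 10035 and 7476 in 6T condition A, and 6449.7, 7726 and 7171 in Luciferase condition B, against 3085, 6358 and 6001 in Luciferase condition A. For both genes 6T B1 and 6T A2 were highest in their groups and Luciferase A1 lowest. HSPA9, the mitochondrial HSP70, varied less, with means of 5152 ± 242 in 6T condition B and 5205 ± 571 in 6T condition A, and of 4462 ± 170.0 in Luciferase condition B and 3850.5 ± 702 in Luciferase condition A (SD, n = 3 each).

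**Figure D2:**
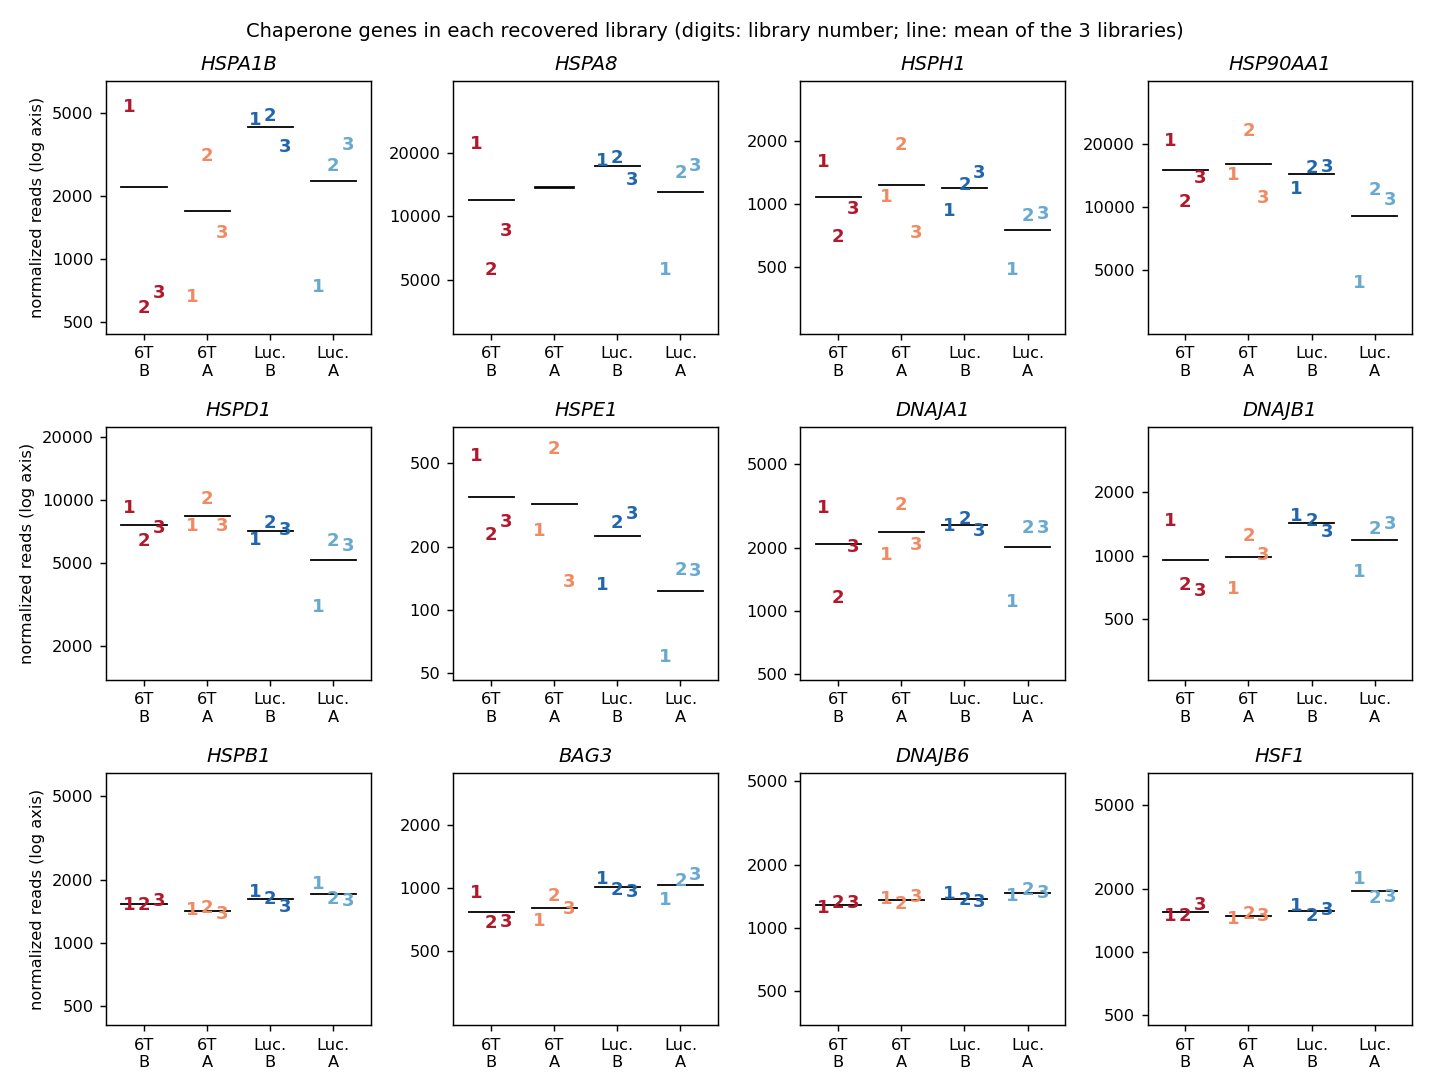
Normalized reads (vertical axis, logarithmic, spanning the same fold range in every panel) of 12 chaperone and factor genes in each recovered library of the 4 groups, with the digit giving the library's number and a line at the mean of the group. HSPA8 has only its mean in 6T condition A. HSPA1B runs from 587 to 5314 within 6T condition B, while DNAJB6 stays between 1245 and 1519 over all 12 libraries.

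HSPB1 and BAG3 of the core varied less in the same libraries, as did DNAJB6, which is not in the core. HSPB1 had 1515, 1512 and 1583 normalized reads in 6T condition B, against 1426, 1459 and 1379 in 6T condition A, and 1744, 1615 and 1477 in Luciferase condition B, against 1897, 1616 and 1591 in Luciferase condition A. BAG3, which links HSP70 to autophagy and is itself a target of HSF1, had 952, 681 and 689 in 6T condition B, against 698, 921 and 797 in 6T condition A. It had 1102, 985 and 958 in Luciferase condition B, against 882, 1079 and 1159 in Luciferase condition A. BAG3 too was highest in 6T B1 and 6T A2 and lowest in Luciferase A1 within those groups, over a narrower range. DNAJB6, a J protein that keeps polyglutamine from aggregating, ranged from 1245 to 1519 over all 12 libraries and its promoter entry holds a 3-unit motif.

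The core comprised HSPA1A, HSPA1B, HSPA6, HSPA8, HSPH1, HSPB1, HSPD1, HSPE1, HSP90AA1, DNAJB1, DNAJA1 and BAG3, of which 9 were in the fit. In 6T B1, 8 of the 9 core genes were highest of the 3 libraries of their group, and 36 of all 59 chaperone genes, or 61.0%, against 39.7% of all 13897 genes. In 6T A2, 9 of 9 core genes and 43 of 59 chaperone genes, or 72.9%, were highest, against 42.1% of all genes. In Luciferase A1, 8 of 9 core genes and 39 of 59 chaperone genes, or 66.1%, were lowest, against 46.0% of all genes. In 6T B2, 8 of 9 core genes and 31 of 59 chaperone genes, or 52.5%, were lowest, against 37.3% of all genes. The median deviation of the core from the group's mean was 0.64 in 6T B1, 0.47 in 6T A2, −0.67 in Luciferase A1 and −0.45 in 6T B2 on the log2 scale, against 0.12, 0.14, −0.23 and −0.07 over all chaperone genes. It was 0.38 in Luciferase A2 and 0.30 in Luciferase A3, and −0.09, −0.17 and −0.15 in 6T B3, 6T A1 and 6T A3. Over all genes the median was between −0.02 and 0.02, to 2 decimals, in each of these libraries. The size factors were within 0.0155% of medians of ratios over genes, which hold the median over all genes near 0 by construction. In Luciferase condition B, the deepest group, the core's median deviation lay between −0.08 and 0.10.

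**Figure D3:**
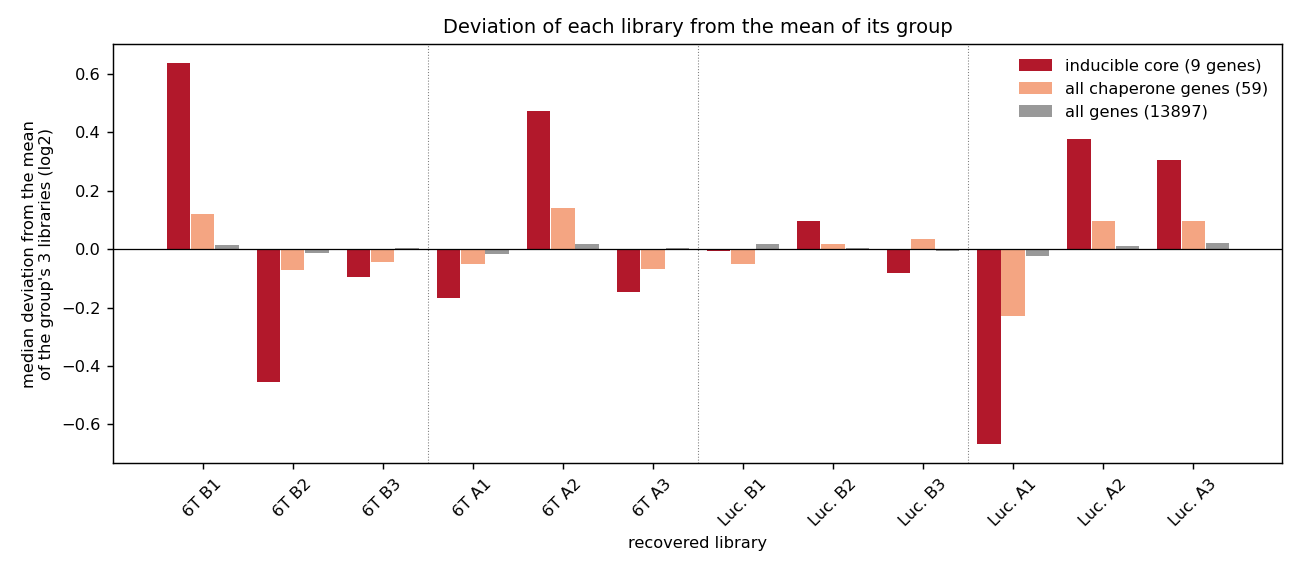
Median deviation of each recovered library from the mean of its group's 3 libraries (vertical axis, log2) for the 9 core genes in the 12-library fit, the 59 chaperone genes and all 13897 genes. The core stood 0.64 above its group in 6T B1 and 0.67 below it in Luciferase A1. The median over all genes is held near 0 by the size factors.

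Deviations of the libraries were also related to the GC content of the annotated transcripts, in part in the same libraries. Over all genes, the deviation of a gene in a library from its group's mean had a rank correlation with transcript GC content of −0.31 in 6T B1, −0.43 in 6T A2, 0.64 in Luciferase A1, −0.55 in Luciferase A2 and −0.46 in Luciferase A3. In 6T B2, where the core was low, it was 0.00. It was 0.72 in Luciferase B1, −0.62 in Luciferase B3 and 0.42 in both 6T B3 and 6T A3, where the core's median deviation was −0.15 or nearer to 0. These are correlations over genes of 1 library, which share its depth and preparation. With the values corrected for GC content in each library, the spread of HSPA1B was 1.26 on the log2 scale and ranked second of 13166 genes, that of HSPE1 0.83 and ranked 19, and that of DNAJB1 0.45 and ranked 605. That of HSPH1 was 0.39 against 0.54 uncorrected, and that of HSPD1 0.28 against 0.35. The spread of HSPA1B, HSPE1 and DNAJB1 was therefore no smaller after the correction, and that of HSPH1 and HSPD1 was smaller. It was smaller too for DNAJC10 (0.27 against 0.50), DNAJB4 (0.30 against 0.51), DNAJA1 (0.45 against 0.54), HSP90AA1 (0.49 against 0.55) and HSPA2 (0.59 against 0.63). For HSPB11 it was larger (0.57 against 0.53). The corrected spread of DNAJC10, DNAJB4 and HSPH1 ranked 2525, 2029 and 955 of 13166.

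The spread was not shared by all chaperone genes. Its median was 0.21 on the log2 scale over the 59 genes, against 0.18 over all 13897. Spread fell with level, and its median was 0.13 over the 7071 genes with a mean of 300 or more. Without matching for level or correction for GC content, 9 of 59 chaperone genes, or 15.3%, were among the widest 5% of all genes. These were HSPA1B, HSPE1, HSPA2, HSP90AA1, HSPH1, DNAJA1, HSPB11, DNAJB4 and DNAJC10. Of them 5 belong to the core of 9, whose median was 0.54. HSPA2, a HSP70 known best from the testis, had 117, 41.9 and 60.9 normalized reads in 6T condition B, against 52.3, 166 and 63.7 in 6T condition A (no motif was found for it). Among the 4 genes of the fit with a 3-unit motif, HSP90AA1, DNAJA1 and HSPD1 had a spread of 0.55, 0.54 and 0.35, and DNAJB6 one of 0.06.

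**Figure D4:**
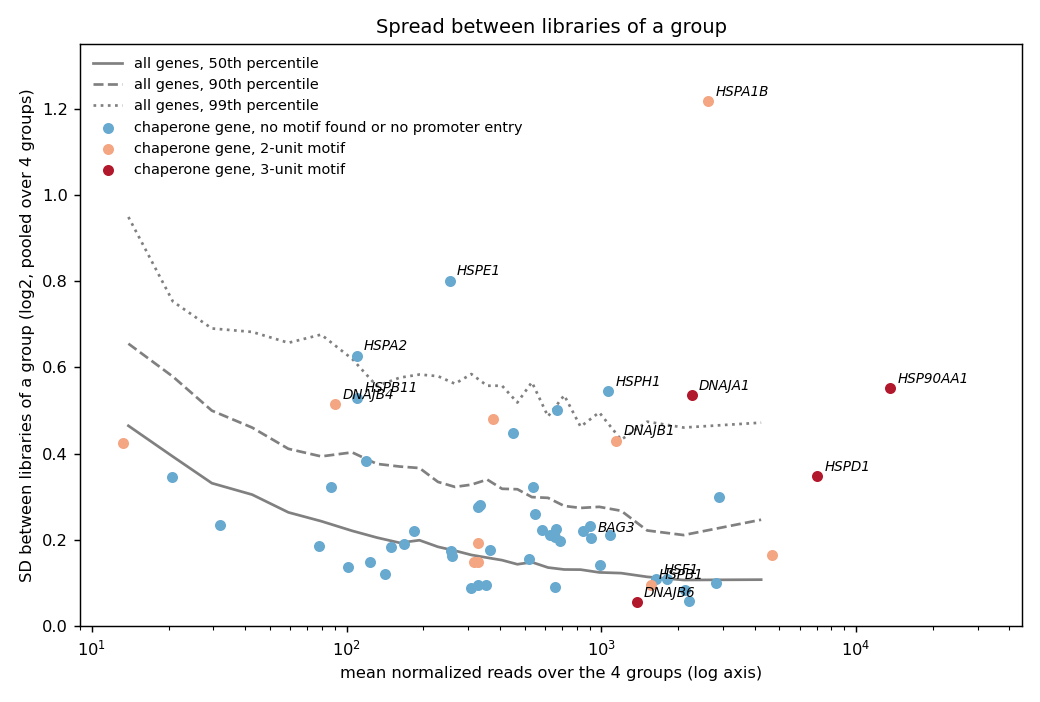
Standard deviation between libraries of a group, pooled over the 4 groups (vertical axis, log2), against the mean normalized reads (horizontal axis, logarithmic) of 59 chaperone genes, coloured by the longest heat shock motif found in the promoter entry. Grey lines give the 50th, 90th and 99th percentiles over all genes at each level. HSPA1B at 1.22 and HSPE1 at 0.80 stand above the 99th percentile, as do HSPA2, HSP90AA1, HSPH1 and DNAJA1, and DNAJB6 at 0.06 lies below the median.

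BAG3 had lower means under 6T than under Luciferase in both conditions. The difference of 6T from Luciferase was −0.41 ± 0.147 in condition B, where its libraries did not overlap, and −0.37 ± 0.147 in condition A, with adjusted p of 0.933 and 0.116 in limma. Corrected for GC content these differences were −0.37 ± 0.150 and −0.19 ± 0.150. Of the cytosolic exchange factors, BAG1 averaged 494 ± 77.8 normalized reads in 6T condition B and 503 ± 44.1 in 6T condition A, and 535 ± 51.5 in Luciferase condition B and 538 ± 30.3 in Luciferase condition A (SD, n = 3 each). BAG2, which inhibits the ubiquitin ligase CHIP, BAG4, which binds death receptors, and BAG5, with its several BAG domains, had deposited log2 fold changes of −0.09, −0.19 and −0.18 under 6T and of 0.22, 0.18 and 0.07 under Luciferase in the authors' deposited tables. All 5 BAG genes had a lower mean in condition B under 6T, with a median log2 fold change of −0.09, and 3 of 5 a higher one under Luciferase, with a median of 0.07, in the authors' deposited tables. HSPBP1 averaged 946 ± 105 in 6T condition B and 907 ± 125 in 6T condition A, and 991 ± 82.1 in Luciferase condition B and 1115 ± 9.38 in Luciferase condition A (SD, n = 3 each). The libraries of BAG1 overlapped between conditions, while HSPBP1 was lower in every library of Luciferase condition B than in condition A.

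Of the other HSP70 relatives, HSPA4, a cytosolic exchange factor of the HSP110 kind, averaged 3118 ± 409.6 in 6T condition B and 3257 ± 1031 in 6T condition A, and 2914 ± 412 in Luciferase condition B and 2277 ± 442 in Luciferase condition A (SD, n = 3 each). Its relative HSPA4L had a deposited log2 fold change of −0.09 under 6T and of 0.80 under Luciferase, with unadjusted p of 0.784 and 0.0982 in the authors' deposited tables. In single libraries HSPA4L had 271, 436 and 558 normalized reads in Luciferase condition B, against 169, 295 and 262 in Luciferase condition A, and the groups overlapped. HSPA14, a HSP70 that works at the ribosome, and HSPA13, a microsomal one, had deposited log2 fold changes of −0.08 and −0.03 under 6T, and of 0.25 and 0.33 under Luciferase, in the authors' deposited tables. The distant relatives HSPA12A and HSPA12B had −0.15 and −0.24 under 6T, and 0.21 and −0.15 under Luciferase, as log2 fold changes in the authors' deposited tables. HSPB9, a small heat shock protein of the testis below the limit of detection set here, had 4.55, 1.4 and 2.39 normalized reads in 6T condition B, against 4.61, 3.74 and 8.57 in 6T condition A. The small heat shock protein HSPB8, which works with BAG3, ranged from 269 to 388 normalized reads over all 12 libraries.

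Among J proteins, DNAJA3 of the mitochondria was one of the steadiest genes, with 2052, 1937 and 2125 normalized reads in 6T condition B, against 2039.7, 2134 and 2060.0 in 6T condition A. It had 2363, 2200.2 and 2129 in Luciferase condition B, against 2477, 2408 and 2551 in Luciferase condition A. The Luciferase conditions did not overlap, and the contrast of 6T with Luciferase in condition A was −0.25 ± 0.071 (adjusted p = 0.0651 in limma). DNAJC7, which carries clients between HSP70 and HSP90, averaged 2018 ± 147 in 6T condition B and 2273 ± 170.4 in 6T condition A, and 2119.8 ± 40.3 in Luciferase condition B and 2131 ± 94.1 in Luciferase condition A (SD, n = 3 each). DNAJA2, a relative of DNAJA1, and DNAJB12, a J protein of the endoplasmic reticulum membrane, had deposited log2 fold changes of −0.15 and −0.11 under 6T and of 0.19 and −0.20 under Luciferase in the authors' deposited tables. DNAJC9, a J protein that also binds histones, had −0.18 and 0.20, DNAJC21, which serves ribosome assembly, had 0.04 and 0.40, and DNAJC28 had −0.48 and 0.37, under 6T and Luciferase in the authors' deposited tables. DNAJC5, the cysteine string protein of vesicles, had a deposited log2 fold change of −0.06 under 6T and of −0.24 under Luciferase in the authors' deposited tables. Its libraries ran from 1646 to 1846 in Luciferase condition B, against 1885 to 2318 in Luciferase condition A, with no overlap. Over the 24 detected DNAJC genes 9 had a higher and 15 a lower mean in condition B under 6T, and 18 a higher and 6 a lower one under Luciferase, in the authors' deposited tables.

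Partners of these chaperones outside the families chosen were read from 5 lists of 7 to 15 genes, of which none was called in either of the authors' deposited tables or in limma's F test. Of the 15 HSP90 co-chaperones 4 had a higher and 11 a lower mean in condition B under 6T, and 9 a higher and 6 a lower one under Luciferase, in the authors' deposited tables. Of 14 subunits of the cytosolic chaperonin and prefoldin, which fold actin and tubulin, 1 had a higher and 13 a lower mean in condition B under 6T, with a median log2 fold change of −0.10, and 8 a higher and 6 a lower one under Luciferase, with a median of 0.11, in the authors' deposited tables. Among the co-chaperones, CHORDC1 had a log2 fold change of −0.26 under 6T, and SUGT1 and CDC37L1, with the smallest p under Luciferase, had 0.32 and 0.71 there, in the authors' deposited tables. Of the chaperonin and prefoldin the genes with the smallest p were CCT2 and PFDN4 under 6T, with −0.19 and −0.60, and CCT4 and CCT8 under Luciferase, with 0.33 and 0.48, in the authors' deposited tables. CCT4 repeated the low library, with 5531, 6529 and 5847 normalized reads in Luciferase condition B, against 3109, 5985 and 5140.5 in Luciferase condition A. Of 10 detected further targets and regulators of heat shock factors, 5 were higher and 5 lower in condition B under 6T, and 3 higher and 7 lower under Luciferase, in the authors' deposited tables. HMOX1, the heme oxygenase that several stress factors induce, had the smallest p of that list, 0.0346 unadjusted, with a deposited log2 fold change of −0.38 under Luciferase in the authors' deposited table (adjusted p = 1.0). IER5 and HSBP1 had 0.21 and −0.13 under 6T, and HSBP1 had 0.20 under Luciferase, in the authors' deposited tables. The 7 other regulators of HSP70 had medians of −0.01 and −0.14, and the 9 other mitochondrial chaperones and proteases medians of 0.02 and −0.18, under 6T and Luciferase in the authors' deposited tables. In these lists GRPEL2 and STUB1 (−0.16 and 0.12) and CLPX and LONP1 (−0.13 and 0.10) had the smallest p under 6T, and ST13 and HYOU1 (0.31 and −0.23) and YME1L1 and CLPP (0.31 and −0.27) under Luciferase, given with log2 fold changes of the authors' deposited tables. The median spread within groups was between 0.11 and 0.15 on the log2 scale in each of the 5 lists, against 0.54 in the core.

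HSPA5, the HSP70 of the endoplasmic reticulum, which was left out of the families above, had 5895, 4287 and 4293 normalized reads in 6T condition B, against 4387, 5972 and 4585 in 6T condition A, and 4462, 4895 and 4515 in Luciferase condition B, against 3293, 4956 and 4489 in Luciferase condition A. Libraries 6T B1 and 6T A2 were again high and Luciferase A1 low, over a narrower range than for HSPA1B.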

How the data were processed

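PolyA RNA of 12 HEK293T libraries was sequenced after preparation with a VAHTS mRNA-seq kit. Reads were aligned with STAR to hg38, counted with HTSeq and compared with DESeq, per the submitters' processing notes; versions are not given in the sources used here. The authors deposited, for each sgRNA, the mean normalized signal of each condition (counts divided by size factors), the fold change as a ratio of condition B over A, its log2 value, and the p-value with its adjusted value, per the file headers.

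From each deposited mean, whole reads of 3 libraries per condition were recovered, searching within 90% of the mean and using the deposited log2 fold change. A single solution was found for 99.9% or more of the genes above 0 in each condition, and 0.730% to 5.36% of a library's reads lie in genes without one. On simulated data all 15178 single solutions, of 15213 means, were true. No-feature and ambiguous reads (21.6% to 22.2% and 1.74% to 1.77%) stayed out of depths and tests. Genes with a mean of 10 or more in both tables were fitted in limma 3.58.1 (R 4.3.3) with a mean-variance trend, on log2(normalized reads + 1), with an F test over the 4 groups and 5 contrasts, and Benjamini-Hochberg adjusted p under 0.05 over all genes. Fold changes on this scale understate those of low genes. Alternatives were other pseudocounts, filters, size factors and trends, GC correction and leaving out each library. Coordinates, exon length and GC content are from GENCODE v29 (hg38), promoters from RefSeq.

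The genes and lists were chosen with earlier results of these data known. Genes were named where called, where among the 8 smallest p of a test, where detected in the HSPA, HSPB, HSPD, HSPE, HSPH, HSP90A, HSF and BAG families, or where among the 3 most abundant of DNAJA, DNAJB and DNAJC; of the partner lists, the 2 smallest p. Others were named after their values were seen, for their spread, overlap or motif. The values of 2 genes are not reported here.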

Additional observations from a re-analysis of the deposited data

How the results depend on the processing

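With 3 libraries per group, small differences were not detectable. No paired analysis was possible because the deposited columns carry no replicate number. Of 1073 values under alternatives, for 55 results, 877 for single genes stayed on their side of the threshold of limma's F test. No chaperone gene passed it in the main fit. A further 189 values, counts or medians, stayed within 1.5 times of the count or within the spread between libraries. Direction was not compared, so a median could change sign within that spread. With GC correction the median log2 difference over the chaperone genes was 0.072 (0.20 uncorrected) between Luciferase conditions B and A, 0.021 (0.21) between 6T and Luciferase in condition A, and −0.10 (−0.28) for the difference of the changes. Leaving out 1 library at a time, these medians ranged from 0.058 (without Luciferase A1) to 0.23, from 0.12 (without 6T A2) to 0.28, and from −0.37 to −0.15 (without Luciferase A1 or 6T A2). The median between 6T conditions B and A ranged from −0.14 (without 6T B1) to 0.03 (without 6T A2), and between 6T and Luciferase in condition B from −0.06 to 0.01. The count of chaperone genes called between 6T and Luciferase in condition A ranged from 0 to 7 (7 without Luciferase A2, when 1056 genes were called in all), and that of every other comparison was 0 throughout. In place of the deposited test, limma on each table's 6 libraries called 0 chaperone genes in both. The cause was not tested.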
